A study of Mus musculus with 5 samples.

Results

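SUZ12 belongs to the core of PRC2, a Polycomb complex that represses genes, and its peaks that lay close to the start sites of 2 different genes are described here. The material was mouse embryonic stem cells (ESCs), a pluripotent cell type, of male 129SV origin, grown in medium with LIF. Every SUZ12 library came from cells whose Mbd3 gene is knocked out, and the cells differed in what they carried: MBD3a without its methyl-CpG-binding domain (ΔMBD), MBD3a without its coiled-coil domain (ΔCC), a construct labelled WT, or one labelled GFP. WT is read here as full-length MBD3 and GFP as the control without MBD3, from the names alone. How the constructs were brought into the cells, and whether a line was 1 clone, is not given in the sources used here. Chromatin immunoprecipitation with an antibody to SUZ12 was followed by sequencing, with 1 library per group, so no difference between groups has a replicate check. An input library without antibody, of EBRTcH3 cells, has no peak list and entered no comparison. The deposited lists hold no expression values, so the ESC identity of the cultures and the loss of Mbd3 could not be checked in them, and they give no read numbers, so the depth of the libraries is unknown.

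The members were selected on the deposited distances: a peak was taken when its centre lay within 5000 bp of the start sites of at least 2 gene symbols. There were 303 such peaks among the 9793 peaks with any gene in reach, counted per library. They numbered 89 in ΔMBD (2.98% of 2986 peaks), 84 in ΔCC (3.74% of 2243), 71 in WT (2.66% of 2671) and 59 in GFP (3.12% of 1893). The exact 95% binomial intervals of these shares overlapped, with 2.40 to 3.66% in ΔMBD, 2.998 to 4.62% in ΔCC, 2.08 to 3.34% in WT and 2.38 to 4.00% in GFP. All intervals given here cover counting error over peaks or genes only. Those over genes count the 2 genes linked to 1 peak as independent, so they are too narrow where both depend on that peak. Each of the 303 peaks was linked to exactly 2 symbols, and none to 3 or more. The lists were made by linking a peak to its nearest gene on either side, with curated domains added, which largely sets this number. Together they named 107 gene pairs made of 206 symbols, of which 8 took part in more than 1 pair. These peaks are called shared peaks below.

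PRC2 places methyl groups on lysine 27 of histone H3 and holds many developmental regulators silent in ESCs. In mammals it is found mainly at promoters rich in CpG dinucleotides. MBD3 belongs to the NuRD complex, which removes acetyl groups from histones and remodels nucleosomes. Start sites of neighbouring genes can lie close together in 3 ways. Divergent genes are transcribed away from each other, so a peak between their starts is upstream of both. Tandem genes run in the same direction, so the peak is downstream of one start and upstream of the other. Convergent genes run toward each other, so the peak is downstream of both.

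To show what such start sites look like, the promoters of 4 pairs are printed, with each CG dinucleotide in capitals. They cover all 3 orientations, and each pair had a shared peak centred in the printed stretch of one of its genes in at least 1 library. The sequences are from RefSeq on the build GRCm38.p6, from 250 bases before to 50 bases after the annotated start, 5′ to 3′ on the strand of the gene. The deposited distances refer to the older build mm9, and no coordinate was carried over. A pair was printed only where the separation of the RefSeq starts equalled that in the files within 50 bp.
Zic1, chr9:91365719-91366018, - strand: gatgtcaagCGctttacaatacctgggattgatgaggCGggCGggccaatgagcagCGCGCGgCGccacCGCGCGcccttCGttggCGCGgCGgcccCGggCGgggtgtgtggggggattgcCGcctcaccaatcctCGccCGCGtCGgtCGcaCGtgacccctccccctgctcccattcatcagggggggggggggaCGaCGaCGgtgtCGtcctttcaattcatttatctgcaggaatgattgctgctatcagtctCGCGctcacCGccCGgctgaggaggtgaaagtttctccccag
Zic4, chr9:91368722-91369021, + strand: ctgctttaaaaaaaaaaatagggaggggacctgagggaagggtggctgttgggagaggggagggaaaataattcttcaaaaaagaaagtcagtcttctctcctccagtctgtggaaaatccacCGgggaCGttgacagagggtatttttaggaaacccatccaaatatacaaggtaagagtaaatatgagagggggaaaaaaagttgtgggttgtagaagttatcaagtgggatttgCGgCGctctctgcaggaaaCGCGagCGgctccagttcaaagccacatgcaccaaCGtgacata
Tmem151a, chr19:5085442-5085741, - strand: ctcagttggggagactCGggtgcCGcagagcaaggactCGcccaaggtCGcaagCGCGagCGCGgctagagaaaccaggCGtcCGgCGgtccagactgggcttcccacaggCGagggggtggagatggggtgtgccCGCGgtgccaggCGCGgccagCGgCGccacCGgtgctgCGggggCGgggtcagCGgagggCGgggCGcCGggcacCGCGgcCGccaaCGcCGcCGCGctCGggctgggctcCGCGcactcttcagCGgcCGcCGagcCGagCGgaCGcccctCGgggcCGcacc
Yif1a, chr19:5088288-5088587, + strand: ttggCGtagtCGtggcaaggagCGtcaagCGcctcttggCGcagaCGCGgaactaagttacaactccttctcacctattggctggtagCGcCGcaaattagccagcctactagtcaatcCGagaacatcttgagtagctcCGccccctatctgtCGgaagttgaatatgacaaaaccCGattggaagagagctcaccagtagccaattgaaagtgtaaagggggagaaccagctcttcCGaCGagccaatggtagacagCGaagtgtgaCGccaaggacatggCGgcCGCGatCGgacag
Hes5, chr4:154960673-154960972, + strand: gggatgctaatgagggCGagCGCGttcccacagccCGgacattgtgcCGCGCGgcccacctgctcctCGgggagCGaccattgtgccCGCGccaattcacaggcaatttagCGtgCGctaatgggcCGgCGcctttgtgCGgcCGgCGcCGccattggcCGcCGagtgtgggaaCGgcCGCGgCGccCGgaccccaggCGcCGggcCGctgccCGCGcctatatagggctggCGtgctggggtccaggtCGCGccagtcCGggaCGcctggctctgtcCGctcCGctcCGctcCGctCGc
Pank4, chr4:154963873-154964172, + strand: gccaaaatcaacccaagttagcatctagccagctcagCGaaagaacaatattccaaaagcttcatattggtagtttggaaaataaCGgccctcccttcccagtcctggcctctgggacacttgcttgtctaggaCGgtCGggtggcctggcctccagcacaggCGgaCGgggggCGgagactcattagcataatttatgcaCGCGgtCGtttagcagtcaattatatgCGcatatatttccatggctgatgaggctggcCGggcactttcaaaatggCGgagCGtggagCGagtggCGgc
Ltbp2, chr12:84876442-84876741, - strand: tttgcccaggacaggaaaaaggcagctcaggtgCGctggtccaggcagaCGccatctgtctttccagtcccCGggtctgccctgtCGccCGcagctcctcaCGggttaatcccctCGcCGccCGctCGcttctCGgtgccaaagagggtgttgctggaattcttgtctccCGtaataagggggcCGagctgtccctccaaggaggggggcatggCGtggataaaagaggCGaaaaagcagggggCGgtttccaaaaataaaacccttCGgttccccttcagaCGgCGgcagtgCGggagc
D030025P21Rik, chr12:84875552-84875851, + strand: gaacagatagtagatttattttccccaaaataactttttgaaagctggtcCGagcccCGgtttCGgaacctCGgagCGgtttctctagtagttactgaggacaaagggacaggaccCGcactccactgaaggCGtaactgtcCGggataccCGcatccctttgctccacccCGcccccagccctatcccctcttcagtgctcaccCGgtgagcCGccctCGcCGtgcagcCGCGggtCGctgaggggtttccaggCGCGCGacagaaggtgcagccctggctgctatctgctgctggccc

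Zic1 and Zic4 encode zinc finger transcription factors of the developing hindbrain and are divergent. The Zic1 promoter held 31 CG dinucleotides and that of Zic4 held 8, and 10.6% and 48.7% of the 32851 RefSeq promoters of this length held at least as many. Tmem151a, a transmembrane protein, and Yif1a, a protein of transport between endoplasmic reticulum and Golgi, are divergent as well, with 43 and 21 CG (2.61% and 24.8% of promoters). Hes5, a repressor that responds to Notch signals in neural progenitors, stands in tandem with Pank4, of the pantothenate kinase family, with 41 and 16 CG (3.46% and 33.0%). Ltbp2, which encodes a latent TGF-β binding protein of the extracellular matrix, is convergent with the long noncoding RNA gene D030025P21Rik, and both promoters held 20 CG (26.5%). CG reads the same on both strands, so 1 count serves both. The counts describe these windows only. At Zic1/Zic4, the centre within a printed stretch was 1 GFP peak, 56 bp upstream of Zic1. The ΔMBD, ΔCC and WT libraries had centres 295, 323 and 265 bp upstream of Zic4, just beyond its printed stretch. Only the 30 pairs whose RefSeq separation matched within 50 bp were searched for centres in such a window. Of the 5 genes found among them, 3110082J24Rik, with 10 CG, is not printed. Pairs outside this search also had centres as close to a start, as at Fosl2, 138 bp (ΔMBD) and 81 bp (ΔCC) upstream.

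At Tmem151a/Yif1a, the centre was 100 bp upstream of Tmem151a in ΔMBD and 24 bp upstream in WT, and 2922 bp and 2998 bp upstream of Yif1a in ΔMBD and WT, and the ΔCC and GFP libraries had no shared peak there. At Hes5/Pank4, centres lay 204 and 933 bp downstream of Hes5 in ΔMBD, 188 and 1406 bp in ΔCC, 43 and 1030 bp in WT, and 198 bp in GFP. The same peaks were 1804 to 3167 bp upstream of Pank4, so every shared peak of this pair lay closer to Hes5. At D030025P21Rik/Ltbp2, whose starts are 726 bp apart, centres were 151 bp (ΔMBD), 38 bp (ΔCC), 64 bp (WT) and 260 bp (GFP) downstream of D030025P21Rik and 466 to 688 bp downstream of Ltbp2.

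The distances allowed a check of how the lists were read. If a peak lies between 2 starts, the sizes of its 2 distances add up to the separation of the starts, whichever library it came from. Of the 107 pairs, 66 had at least 2 shared peaks, 262 peaks in all, and the sum and the signs agreed exactly within every one of these pairs. The shared peaks of these pairs thus lay between the 2 starts. Linking to the nearest gene on either side already provides for this, and for neighbouring genes, apart from curated domains. The agreement is therefore a check of the reading and no result about SUZ12. For 54 pairs both genes had a promoter in the RefSeq table, and the strands there gave the same orientation as the signs for 19 of 19 divergent, 26 of 26 tandem and 6 of 9 convergent pairs. The 3 exceptions were Ciz1/Dnm1, Gm16499/Tril and Gm4793/Nav1, whose RefSeq starts lay farther apart than those in the files and diverged. Of 77 pairs of 2 protein-coding genes, 72 were direct neighbours among the protein-coding genes of the table. At Hoxa3/Hoxa7, 3 such genes stood between. D130058E05Rik, the partner of Gbx2, is listed there as a synonym of Gbx2, so this pair is 2 symbols of 1 RefSeq gene. It is still counted below as a convergent pair, among the pairs of all libraries and among those with a clone name.

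Within the window of 5000 bp, tandem neighbours supplied the most shared peaks, and within 2000 bp they supplied the fewest. Over the libraries, 152 of 303 (50.2%, interval 44.4 to 55.9) lay between tandem starts, 79 (26.1%, 21.2 to 31.4) were downstream of both starts and 72 (23.8%, 19.1 to 29.0) were upstream of both. These pooled intervals, and those below, count repeated peaks of the same gene pair as independent and are too narrow. Of the 303 peaks, 109 came from 17 pairs found in all 4 libraries. Peaks upstream of both starts made up 26 of 89 in ΔMBD (29.2%, 20.0 to 39.8), 19 of 84 in ΔCC (22.6%, 14.2 to 33.1), 15 of 71 in WT (21.1%, 12.3 to 32.4) and 12 of 59 in GFP (20.3%, 10.98 to 32.8). Tandem peaks made up 41.6% in ΔMBD (31.2 to 52.5), 57.1% in ΔCC (45.9 to 67.9), 50.7% in WT (38.6 to 62.8) and 52.5% in GFP (39.1 to 65.7). Peaks between convergent starts were 26 in ΔMBD, 17 in ΔCC, 20 in WT and 16 in GFP. For each orientation the intervals of the 4 libraries overlapped. With 2000 bp in place of 5000 bp, 8 of 77 shared peaks were tandem (10.4%, 4.59 to 19.4), 38 convergent (49.4%, 37.8 to 61.0) and 31 divergent (40.3%, 29.2 to 52.1), and with 1000 bp none of 37 was tandem. The lead of tandem starts was thus tied to the wide window. Per library at 2000 bp, the share upstream of both starts was 47.8% of 23 peaks in ΔMBD, 43.5% of 23 in ΔCC, 23.5% of 17 in WT and 42.9% of 14 in GFP.

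**Figure D1:**
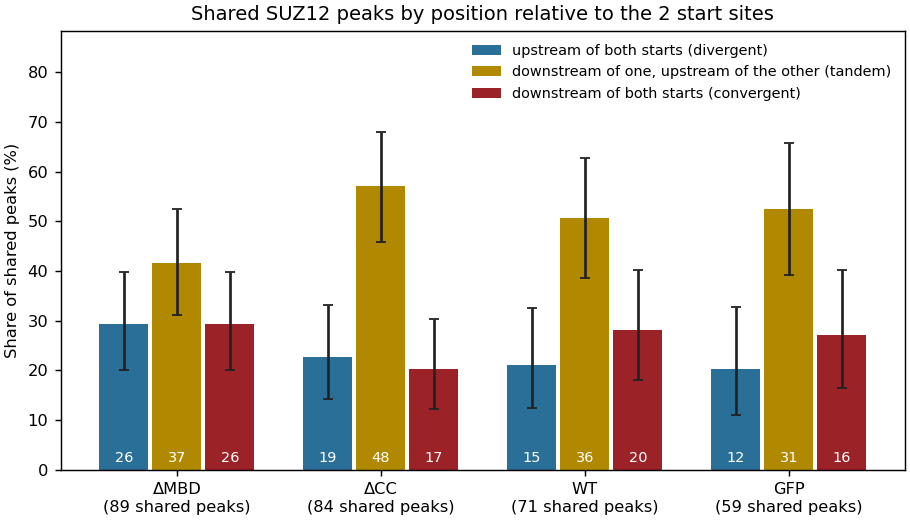
Share of the shared peaks of each library (y axis, percent) by their position relative to the 2 start sites; bars start at 0, whiskers are exact 95% binomial intervals, and the number of peaks stands at the foot of each bar. Within 5000 bp, tandem starts hold the most shared peaks in each of the 4 libraries (at 2000 bp they hold 8 of 77), and the whiskers of each orientation overlap between libraries.

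By pairs, 53 of the 107 were tandem, 31 divergent and 23 convergent, and the orientations differed in how far apart the starts lay. The median separation was 5153 bp for tandem pairs (range 1163 to 9524), 3022 bp for divergent pairs (727 to 8753) and 1296 bp for convergent pairs (278 to 6381). The closest starts were those of Gm7276/St8sia5 at 278 bp, C530025M09Rik/Syndig1 at 425 bp, Gm4793/Nav1 at 582 bp, A830073O21Rik/Fam174b at 610 bp and D030025P21Rik/Ltbp2 at 726 bp. All 5 are convergent by the signs of the distances. By the RefSeq strands Gm4793/Nav1 is divergent, with starts 12421 bp apart. By the rule, 2 starts can be at most 10000 bp apart, so these separations are part of the choice of the members. The tightest divergent pairs were Trpc5/Zcchc16, of a cation channel gene, at 727 bp, and Duox2/Duoxa2 at 735 bp. Duox2 is an oxidase that makes hydrogen peroxide for thyroid hormone synthesis and Duoxa2 its maturation factor.

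**Figure D2:**
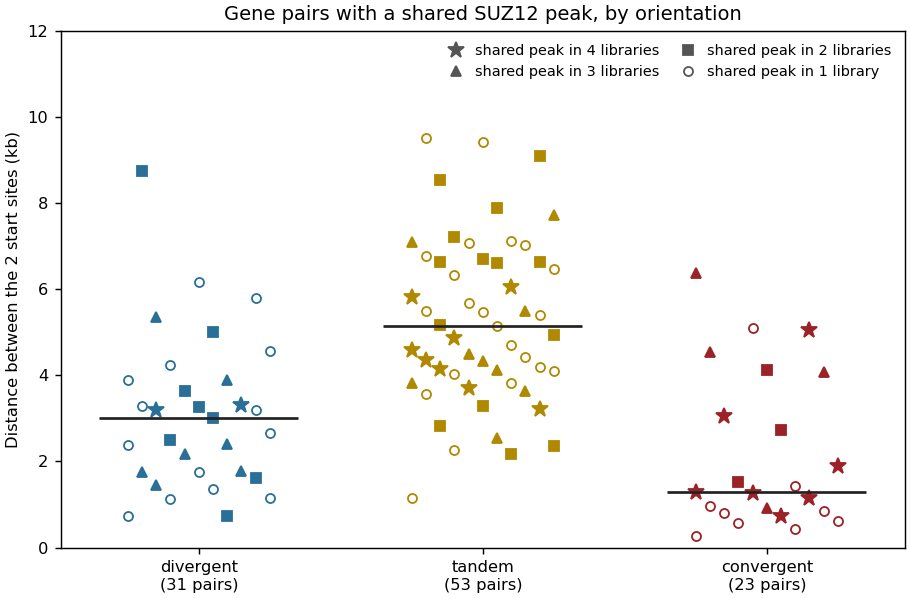
Distance between the 2 start sites of each of the 107 pairs (y axis, kb) by orientation (x axis); 1 symbol per pair, its shape giving the number of libraries with a shared peak, horizontal lines at the medians of 3022, 5153 and 1296 bp. Convergent pairs sit lowest, with 15 of 23 under 2 kb, against 10 of 31 divergent and 1 of 53 tandem pairs.

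Convergent pairs mostly held a gene model with a clone name. By the naming rule (Gm with digits, Rik, or a clone code), 18 of 23 convergent pairs held such a gene (both genes in 3). The numbers were 5 of 31 for divergent and 10 of 53 for tandem pairs (both genes in 3 tandem pairs). With AB041806, whose name is of the same kind but falls outside the rule, the convergent count was 19. Among the named partners were Foxq1 (a forkhead transcription factor), Gbx2 (a homeobox factor of the midbrain-hindbrain border), Fbn1 (fibrillin-1, a component of extracellular microfibrils), Cpeb2 (a regulator of mRNA translation), Ltbp2 and Fam43b. Of the 206 paired symbols 37 carried a clone name (18.0%, interval 13.0 to 23.9), against 79 of the 1729 listed symbols outside the pairs (4.57%, 3.63 to 5.66). The RefSeq table recognised 176 of the 206 by symbol and 8 by a synonym, and 22 had no match. Of those matched, 174 are protein-coding, 9 are long noncoding RNAs and 1 is a transcribed pseudogene. At the 27 pairs of a clone-named and another gene, 77 peaks were shared, 48 more were linked to the clone-named gene alone and 80 to the other gene alone.

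Tandem peaks were centred nearer to the start that they lay downstream of in 90 of 152 cases (59.2%, interval 50.9 to 67.1) over the libraries, where a pair can count more than once. This pooled interval is too narrow for that reason. The libraries gave 24 of 37 in ΔMBD (64.9%, 47.5 to 79.8) and 27 of 48 in ΔCC (56.2%, 41.2 to 70.5). For WT it was 23 of 36 (63.9%, 46.2 to 79.2) and for GFP 16 of 31 (51.6%, 33.1 to 69.85). The median tandem peak was 1957.5 bp downstream of one start and 2831.5 bp upstream of the other. Over all orientations, the nearer start was at a median of 747 bp in ΔMBD, 1194.0 bp in ΔCC, 733 bp in WT and 864 bp in GFP. The farther start was at 2907, 2993.5, 3004 and 3029 bp in ΔMBD, ΔCC, WT and GFP. Shared peaks within 1000 bp of their nearer start made up 56.2% in ΔMBD (45.2 to 66.7), 46.4% in ΔCC (35.5 to 57.7), 57.7% in WT (45.4 to 69.4) and 57.6% in GFP (44.1 to 70.4). For peaks linked to 1 gene this share was 49.1% in ΔMBD, 47.1% in ΔCC, 52.4% in WT and 45.9% in GFP, and each lay inside the interval of the shared peaks. A peak between 2 starts has a second chance to lie near one, which the comparison does not remove.

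At the edge of the window, the last shared peaks inside were at Hspa1l/Lsm2 in WT, 4997 bp from its farther start, and at Gm10718/Gm10720, at 4983 bp in ΔMBD and 4974 bp in ΔCC. The first ones left out were at the same Gm10718/Gm10720 in WT, at 5015 bp, at Ikzf3/Zpbp2 in ΔCC, at 5022 bp, and at Avp/Oxt in WT, at 5055 bp. Gm10718/Gm10720 was therefore counted in ΔMBD and ΔCC and not in WT, although all 3 had a centre at nearly the same place. Between the starts of the pairs, 96 further centres were beyond 5000 bp of one start, counted once per pair.

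Of the 107 pairs, 17 had a shared peak in all 4 libraries, 20 in 3, 25 in 2 and 45 in 1. The 17 pairs accounted for 109 of the 303 shared peaks, and 8 were tandem, 7 convergent and 2 divergent. In 2 or more libraries were 31 of 53 tandem pairs (58.5%), 14 of 23 convergent pairs (60.9%) and 17 of 31 divergent pairs (54.8%). In all 4 were 8 tandem pairs (15.1%, interval 6.75 to 27.6), 7 convergent pairs (30.4%, 13.2 to 52.9) and 2 divergent pairs (6.45%, 0.79 to 21.4), and these intervals overlap. Of the pairs of 1 library, 16 were in ΔMBD alone, 12 in WT alone, 11 in ΔCC alone and 6 in GFP alone. The lists themselves fell in the same order, with 2986 peaks in ΔMBD, 2671 in WT, 2243 in ΔCC and 1893 in GFP. Over all listed genes, 58.9% of those of ΔMBD, 79.3% of ΔCC and 58.8% of WT were also listed in GFP. In WT, 89.3% of ΔMBD genes, 89.8% of ΔCC genes and 93.1% of GFP genes were listed. A further 10 pairs were shared in ΔMBD, ΔCC and WT and not in GFP, 8 in ΔCC and GFP only, 7 in ΔMBD and WT only, 7 in ΔMBD and ΔCC only, and 6 in ΔMBD, ΔCC and GFP and not in WT.

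**Figure D3:**
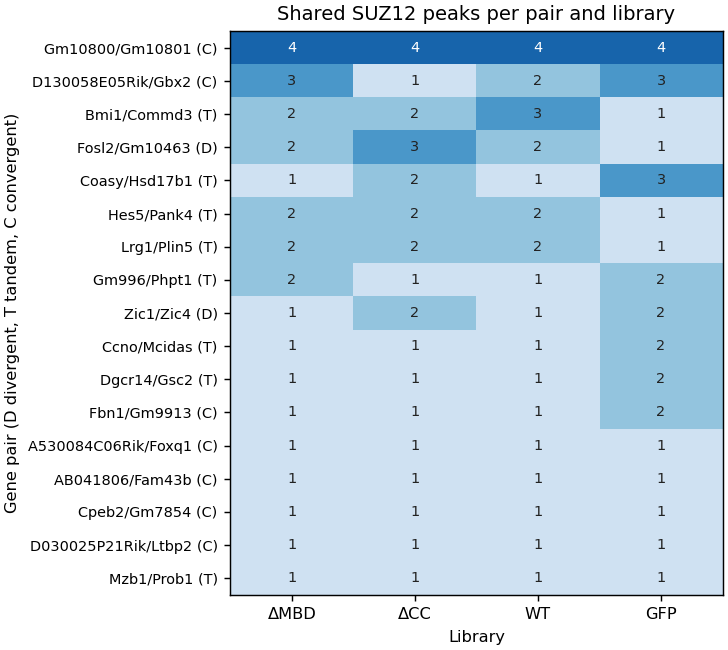
Number of shared peaks per gene pair (rows) and library (columns) for the 17 pairs with a shared peak in all 4 libraries, the letter giving the orientation; darker cells hold more peaks. Gm10800/Gm10801 leads with 4 peaks in each library, and the 5 pairs at the foot have 1 in each.

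Among the pairs of all libraries, those with developmental regulators were Zic1/Zic4, D130058E05Rik/Gbx2, A530084C06Rik/Foxq1, Hes5/Pank4, Dgcr14/Gsc2 and Bmi1/Commd3. At Zic1/Zic4, starts 3202 bp apart, a centre lay 295 bp (ΔMBD), 323 bp (ΔCC) and 265 bp (WT) upstream of Zic4, and ΔCC had a second one 1558 bp upstream of Zic1. In GFP the 2 shared centres were 56 bp and 1843 bp upstream of Zic1. The shared GFP centres thus lay nearer to the Zic1 start than the shared ones of ΔMBD and WT, and the closest set over the libraries spanned 1094 bp. Besides these, Zic1 alone had 1 peak in each library. Zic4 alone had 2 in ΔMBD, 2 in ΔCC, 1 in WT and 1 in GFP. At D130058E05Rik/Gbx2, 3 shared peaks were listed in ΔMBD, 1 in ΔCC, 2 in WT and 3 in GFP. Their first centres were 257 bp (ΔMBD), 137 bp (ΔCC), 235 bp (WT) and 276 bp (GFP) downstream of the D130058E05Rik start, within 139 bp of each other. At A530084C06Rik/Foxq1, the single centre of each library was 748 bp (ΔMBD), 398 bp (ΔCC), 857 bp (WT) and 739 bp (GFP) downstream of Foxq1.

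Bmi1 encodes a subunit of PRC1, the other main Polycomb complex, and stands in tandem downstream of Commd3, of the COMM domain family, 4595 bp from start to start. Shared peaks numbered 2 in ΔMBD, 2 in ΔCC, 3 in WT and 1 in GFP. Centres were 1176 and 2714 bp (ΔMBD), 1300 and 4290 bp (ΔCC), 1823, 2451 and 4344 bp (WT) and 880 bp (GFP) upstream of Bmi1. Peaks downstream of the Bmi1 start, linked to it alone, numbered 1 in ΔMBD, 3 in ΔCC, 1 in WT and 4 in GFP, and none was linked to Commd3 alone. Every peak of Bmi1/Commd3 was thus linked to Bmi1, and Commd3 was listed only through the peaks it shares. At Dgcr14/Gsc2, the homeobox gene Gsc2 had centres 1240 bp (ΔMBD), 897 bp (ΔCC), 558 bp (WT), and 79 and 1168 bp (GFP) downstream of its start, all of them upstream of Dgcr14.

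The other pairs of all libraries joined genes of varied roles. Fosl2, a subunit of the AP-1 transcription factor, is divergent with Gm10463, and the pair had 2 shared peaks in ΔMBD, 3 in ΔCC, 2 in WT and 1 in GFP. Ccno/Mcidas, both needed for multiciliated cells, had 1 in ΔMBD, 1 in ΔCC, 1 in WT and 2 in GFP, with the first centre 1232 to 2381 bp downstream of Ccno. Coasy/Hsd17b1, of coenzyme A synthesis and of oestradiol synthesis, had 1 in ΔMBD, 2 in ΔCC, 1 in WT and 3 in GFP. Lrg1/Plin5, of a secreted glycoprotein and a lipid droplet protein, had 2 in ΔMBD, 2 in ΔCC, 2 in WT and 1 in GFP. Gm996/Phpt1 had 2 in ΔMBD, 1 in ΔCC, 1 in WT and 2 in GFP, and Fbn1/Gm9913 had 1 in ΔMBD, 1 in ΔCC, 1 in WT and 2 in GFP. AB041806/Fam43b, Cpeb2/Gm7854, D030025P21Rik/Ltbp2 and Mzb1/Prob1 had 1 in each library. The library with the most shared peaks differed between pairs: GFP led at Coasy/Hsd17b1, ΔCC at Fosl2/Gm10463 and WT at Bmi1/Commd3.

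How closely the centres agreed between libraries varied widely in the 17 pairs. Taking 1 peak per library so that they lay as close as possible, the centres spanned a median of 703 bp, and 14 of 17 pairs stayed within 1000 bp. The widest were Lrg1/Plin5 at 1180 bp, Ccno/Mcidas at 1149 bp and Zic1/Zic4 at 1094 bp. The narrowest were Gm10800/Gm10801 at 39 bp, D130058E05Rik/Gbx2 at 139 bp and Hes5/Pank4 at 161 bp. Pairs with more peaks offer more combinations, so a narrow span is partly a matter of their number.

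Gm10800/Gm10801 stood apart by its number of shared peaks. It had exactly 4 shared peaks in each of the 4 libraries, 16 in all and more than any other pair. The first centre was 342 bp (ΔMBD), 342 bp (ΔCC), 348 bp (WT) and 402 bp (GFP) downstream of Gm10800. The second was at 2188 bp (ΔMBD), 2191 bp (ΔCC), 2189 bp (WT) and 2152 bp (GFP), so both were nearly fixed across libraries. No peak was linked to either gene alone in any library. Neither symbol is matched in the RefSeq table. The lists give no strength or coordinate by which the peaks of Gm10800/Gm10801 could be checked, and these peaks are given as uncertain. They made up 16 of the 79 shared peaks downstream of both starts. Without this pair, and without all other genes named Gm or Rik and the interferon and olfactory receptor genes, the shared peaks were 58 in ΔMBD, 54 in ΔCC, 46 in WT and 35 in GFP. Nearly fixed centres were also found at Gm10718/Gm10720, where the shared centres of ΔMBD and ΔCC lay within 9 bp. A peak linked to Gm10720 alone was centred 1524 bp (ΔMBD), 1521 bp (ΔCC), 1525 bp (WT) and 1532 bp (GFP) upstream of it. The peaks of Gm10718/Gm10720 are given as uncertain as well.

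**Figure D4:**
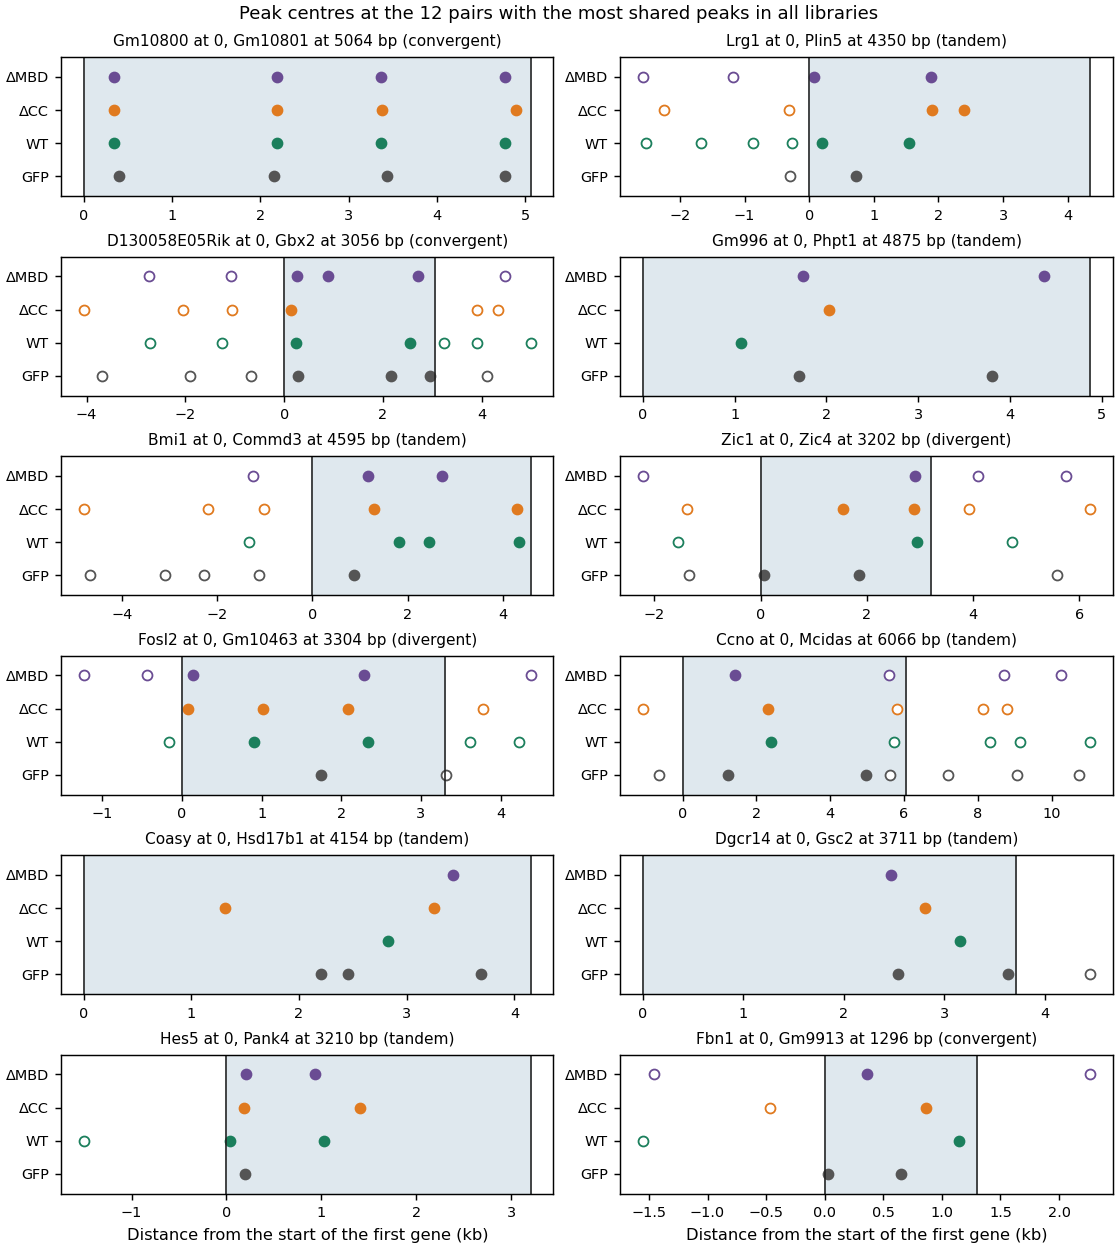
Peak centres (dots) at the 12 pairs with the most shared peaks among those of all 4 libraries, as distance from the start of the first gene (x axis, kb), 1 row per library; vertical lines are the 2 starts and the shaded part lies between them. Filled dots are shared peaks and open dots peaks linked to 1 gene; the dots of Gm10800/Gm10801 line up over the 4 libraries within 39 bp at their closest, and those of Lrg1/Plin5 do not, at 1180 bp.

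Developmental transcription factors were 30 of the 206 paired symbols (14.6%, interval 10.05 to 20.1) and 207 of the 1729 other listed symbols (11.97%, 10.5 to 13.6), and these intervals overlap. Hox and Evx genes made up 21 of the 206 (10.2%, 6.42 to 15.2) and 18 of the 1729 (1.04%, 0.62 to 1.64). Without them, the factors were 9 of 185 paired symbols (4.86%, 2.25 to 9.03) and 189 of 1711 others (11.05%, 9.599 to 12.6), with the paired symbols below the others. This split was chosen after seeing the data. Forkhead genes with letters past d, such as Foxq1, fall outside the letter rule of this list. Hox and Evx genes, which set positional identity along the body axis and stand close together in clusters, were all on the list. Both genes were on the list in 13 pairs, of which 12 were Hox or Evx pairs and the other was Zic1/Zic4, and 1 gene was on it in 7 pairs. Developmental ligands and antagonists were 3 of the 206 (1.46%, 0.30 to 4.20) and 44 of the 1729 (2.54%, 1.86 to 3.40). The 3 were Fgf8, Chrd (chordin, a BMP antagonist) and Bmp1, which encodes a protease that cleaves chordin and procollagen. No gene of the housekeeping or pluripotency lists was paired, but such genes were near absent elsewhere too, with 0 and 1 of the 1729 others. The 1 name that matched the antisense list, Mcidas, only ends in the same letters and is a coding gene.

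Of the 12 Hox and Evx pairs, ΔCC and GFP listed more than ΔMBD and WT: 4 were shared in ΔMBD, 9 in ΔCC, 2 in WT and 10 in GFP. They held 4 shared peaks in ΔMBD, 12 in ΔCC, 2 in WT and 13 in GFP. Peaks of any kind at Hox and Evx genes were also more numerous in ΔCC and GFP. With these genes left out, all linked peaks fell from 2986 to 2932 in ΔMBD and from 2243 to 2132 in ΔCC. In WT they fell from 2671 to 2620 and in GFP from 1893 to 1783. The excess was thus not particular to shared peaks. Shared pairs of other genes numbered 62 in ΔMBD, 53 in ΔCC, 50 in WT and 33 in GFP, so GFP was lowest there. Only Evx2/Hoxd13 is divergent in this set, with centres 4803 and 3801 bp upstream of Evx2 in ΔCC and 4549 bp in GFP. In ΔMBD and WT, Evx2 had 1 peak each, downstream of its start, at 999 bp in ΔMBD and 636 bp in WT, and no peak was linked to Hoxd13. Hoxd8/Hoxd9 had centres 3487 bp upstream of Hoxd8 in ΔCC and 3655 bp in GFP, 168 bp apart. Hoxb3/Hoxb4 had them 2801 bp upstream of Hoxb3 in ΔCC and 2438 bp in GFP. Neither pair had a peak at either gene in ΔMBD or WT. At Hoxb5/Hoxb6, present in ΔMBD, ΔCC and GFP, the centres were 2407, 535 and 3534 bp upstream of Hoxb5 in ΔMBD, ΔCC and GFP, a span of 2999 bp.

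Among pairs absent from GFP, Kremen2/Paqr4 had the most shared peaks, 3 in ΔMBD, 1 in ΔCC and 5 in WT. Kremen2 is a receptor of Wnt antagonists. Avp/Oxt, the convergent genes of the neuropeptides vasopressin and oxytocin, had 1 shared centre in each of ΔMBD, ΔCC and WT, 2190 bp (ΔMBD), 2336 bp (ΔCC) and 2229 bp (WT) downstream of Avp, within 146 bp. In GFP a single peak lay between them, 455 bp downstream of Oxt and out of reach of Avp. Peaks linked to Oxt alone also lay downstream of it in ΔMBD (985 bp) and WT (523 and 1052 bp). Trp73, a relative of p53, and Wrap73 are divergent, with centres 624 bp (ΔMBD), 445 bp (ΔCC) and 456 bp (WT) upstream of Trp73, while in GFP the nearest centre lay 89 bp downstream of it. Bmp1/Sftpc and Cryba2/Fev were likewise shared in ΔMBD, ΔCC and WT and not in GFP. Fev encodes an ETS factor of serotonin neurons. At Cryba2/Fev, GFP had centres 265 bp downstream of Cryba2 and 2342 bp upstream of Fev, each linked to 1 gene.

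In the other direction, 6 pairs were shared in ΔMBD, ΔCC and GFP and not in WT. Besides Hoxa5/Hoxa6, Hoxb5/Hoxb6 and Hoxc5/Hoxc6, they included Adhfe1/Rrs1 and Tshz1/Zadh2. At Adhfe1/Rrs1, centres lay 2193 bp (ΔMBD), 2171 bp (ΔCC) and 2206 bp (GFP) upstream of Adhfe1, and WT had no peak at either gene. At Tshz1/Zadh2, of a zinc finger factor and a reductase, centres lay 221 bp (ΔMBD), 235 bp (ΔCC) and 690 bp (GFP) upstream of Tshz1, and in WT the nearest one lay 335 bp downstream. Tshz1/Zadh2 thus had WT peaks close by without a shared one, and Adhfe1/Rrs1 had none.

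Gata3 encodes a zinc finger factor of T cells and trophoblast. 4930412O13Rik/Gata3 was shared in GFP only, 1286 bp upstream of Gata3, while the nearest Gata3 peaks lay downstream, at 333 bp in ΔMBD, 362 bp in ΔCC and 1490 bp in WT. At Fgf8/Npm3, a growth factor gene and a nuclear chaperone gene in tandem, shared centres were 3004 and 1952 bp (ΔMBD) and 3078 bp (ΔCC) upstream of Fgf8. WT had 1 peak, 530 bp downstream of Fgf8, and GFP had peaks 518 bp upstream and 1569 bp downstream, none in reach of Npm3. Chrd/Thpo, of chordin and thrombopoietin, was shared 624 bp (ΔMBD) and 460 bp (WT) upstream of Chrd, and neither gene had a peak in ΔCC or GFP.

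A pair without a shared peak in a library often still had a peak at one of its genes. Of the 205 combinations of a pair and a library without a shared peak, 94 (45.9%) had no peak at either gene. In 25 a centre lay between the starts but beyond 5000 bp of one of them, in 68 the nearest centre was up to 1000 bp outside the stretch between the starts, and in 18 it was farther outside. For divergent pairs, 32 of 65 such cases had the nearest centre up to 1000 bp outside, that is just downstream of a start, and 23 had none. For tandem pairs the numbers were 21 and 53 of 103, and for convergent pairs 15 and 18 of 37. No peak at either gene was found for 15 pairs in ΔMBD, 23 in ΔCC, 21 in WT and 35 in GFP. The absence of a shared peak therefore differed from the absence of a SUZ12 peak, since widths are not given and the place of the centre alone sets the link.

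**Figure D5:**
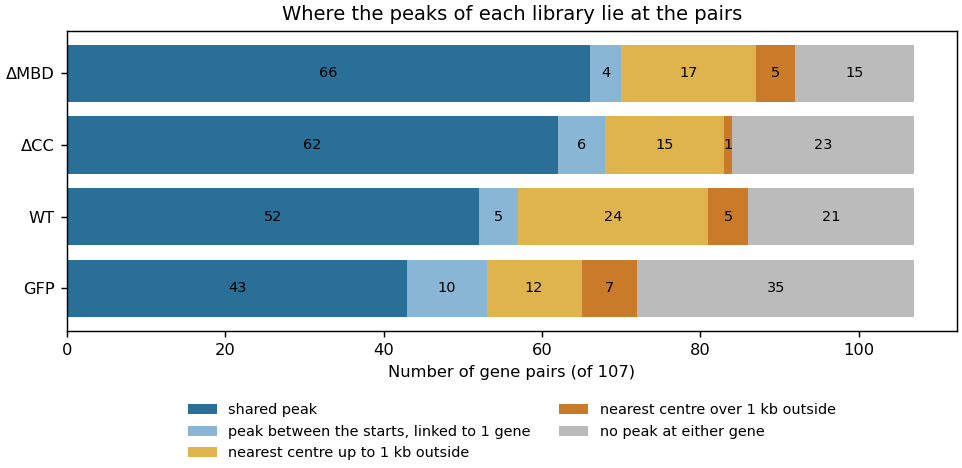
The 107 gene pairs by where the peaks of each library lie (x axis, number of pairs, 1 bar per library). Shared peaks are found at 66 pairs in ΔMBD, 62 in ΔCC, 52 in WT and 43 in GFP, and pairs with no peak at either gene number 15 in ΔMBD, 23 in ΔCC, 21 in WT and 35 in GFP.

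To compare libraries, pairs with a shared peak in one were looked up in the other, as a share of each list. Of the ΔMBD pairs, 36 of 66 (54.5%, interval 41.8 to 66.9) were shared in WT, and these were 69.2% (54.9 to 81.3) of the 52 WT pairs. Of the ΔCC pairs, 30 of 62 (48.4%, 35.5 to 61.4) were shared in WT, which were 57.7% (43.2 to 71.3) of the WT pairs. Between WT and GFP 22 pairs were in common, 42.3% (28.7 to 56.8) of WT pairs and 51.2% (35.5 to 66.7) of the 43 GFP pairs. ΔCC and GFP had 33 in common, 53.2% (40.1 to 66.0) of ΔCC pairs and 76.7% (61.4 to 88.2) of GFP pairs. ΔMBD and GFP had 26 in common, 39.4% of ΔMBD pairs and 60.5% of GFP pairs, and ΔCC and ΔMBD had 40, 64.5% of ΔCC pairs and 60.6% of ΔMBD pairs. Of the 3 shares of the GFP pairs, that in ΔCC was the highest, and the 3 intervals overlap, with 44.4 to 75.0 for ΔMBD. These comparisons reuse the same 4 libraries and are not independent of each other.

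At the level of genes, the paired symbols can be set beside all listed genes, counting any peak. Both genes of a pair can hang on the same shared peaks, and the intervals count them as independent, so they are too narrow. Neither gene had another peak in 30 ΔMBD pairs, 22 ΔCC pairs, 24 WT pairs and 11 GFP pairs. Whether an interval holds the share of all genes is therefore a description only. Of genes in ΔMBD pairs 74.6% (66.2 to 81.8) were listed in WT, against 89.3% of all ΔMBD genes, and of genes in WT pairs 86.5% (78.4 to 92.4) were listed in ΔMBD, against 90.0% of all WT genes. Of genes in ΔCC pairs 67.8% (58.7 to 76.0) were listed in WT, against 89.8% of all, and of genes in WT pairs 69.2% (59.4 to 77.9) in ΔCC, against 65.9%. Of genes in WT pairs 56.7% (46.7 to 66.4) were listed in GFP, against 58.8% of all, and of genes in GFP pairs 72.0% (60.9 to 81.3) in WT, against 93.1%. For the genes of ΔMBD, ΔCC and GFP pairs, the share of all genes listed in WT lay above the counting interval of the paired genes. The other comparisons were ΔMBD genes in GFP at 55.4% (46.4 to 64.1) against 58.9% of all, ΔCC genes in GFP at 73.6% (64.8 to 81.2) against 79.3%, and ΔCC genes in ΔMBD at 77.7% (69.2 to 84.7) against 91.1%. In reverse they were GFP genes in ΔMBD at 79.3% (68.9 to 87.4) against 94.0%, GFP genes in ΔCC at 92.7% (84.7 to 97.3) against 92.1%, and ΔMBD genes in ΔCC at 67.7% (58.9 to 75.6) against 66.3%. Of these, the ΔCC and GFP genes looked up in ΔMBD again had an interval below the share of all genes. With Hox and Evx genes left out on both sides, the shares listed in WT were 77.0% (68.6 to 84.2) against 89.5% of all for ΔMBD pairs, 73.1% (63.5 to 81.3) against 90.8% for ΔCC pairs and 86.2% (75.3 to 93.5) against 94.5% for GFP pairs. The shares listed in ΔMBD were 80.8% (71.9 to 87.8) against 91.8% for ΔCC pairs and 87.7% (77.2 to 94.5) against 95.1% for GFP pairs. The gaps for GFP pairs were thus narrower without these genes.

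Many paired genes were in a list through their shared peaks alone. These were 84 of 130 genes in ΔMBD (64.6%, interval 55.7 to 72.8), 67 of 121 in ΔCC (55.4%, 46.1 to 64.4), 70 of 104 in WT (67.3%, 57.4 to 76.2) and 39 of 82 in GFP (47.6%, 36.4 to 58.9). In 25 ΔMBD pairs, 24 ΔCC pairs, 22 WT pairs and 18 GFP pairs, exactly 1 of the 2 genes had no other peak, as Commd3 beside Bmi1. Of the 70 such WT genes, 80.0% were listed in ΔMBD, 60.0% in ΔCC and 47.1% in GFP. The other paired WT genes were listed at 100% in ΔMBD, 88.2% in ΔCC and 76.5% in GFP, higher than the genes with shared peaks alone, a difference that was not tested. For genes of GFP pairs the order was reversed in 2 of 3 lookups. In WT 74.4% of those with shared peaks alone and 69.8% of the others were listed, in ΔMBD 84.6% and 74.4%, and in ΔCC 87.2% and 97.7%.

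Shared peaks were also matched between libraries one by one and set beside peaks linked to 1 gene. A counterpart was a peak of the other library centred within 1000 bp, read at the nearer gene. In WT, 67.4% of ΔMBD shared peaks had one (56.7 to 77.0), against 72.3% of ΔMBD peaks linked to 1 gene and 72.1% of all ΔMBD peaks. For WT peaks in ΔMBD these were 78.9% (67.6 to 87.7), 77.2% and 77.2%. For ΔCC peaks in WT they were 59.5% (48.2 to 70.1), 66.6% and 66.3%, and for WT peaks in ΔCC 62.0% (49.7 to 73.2), 51.7% and 52.0%. For WT peaks in GFP they were 40.8% (29.3 to 53.2), 43.6% and 43.5%, and for ΔCC peaks in GFP 53.6% (42.3 to 64.5), 64.2% and 63.8%. For GFP peaks in ΔCC they were 74.6% (61.6 to 85.0), 73.6% and 73.6%. Of the comparisons given here, only that of GFP peaks in WT had an interval that did not hold the share of peaks linked to 1 gene: 49.2% of shared peaks (35.9 to 62.5) had a WT counterpart, against 66.5% of peaks linked to 1 gene and 65.9% of all. Without Hox and Evx genes these GFP shares were 63.0% (47.6 to 76.8) for shared peaks and 68.7% for peaks linked to 1 gene.

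Of the pairs found in 1 library, most had a single shared peak. In ΔMBD alone, Clec11a/Shank1 had 2 shared peaks, and Ankrd13b/Git1, Arhgdig/Pdia2, Car7/Nae1 and Ciz1/Dnm1 had 1. In ΔCC alone, Ccr10/Plekhh3 had 2, and 3110047P20Rik/Gm9954, Abhd15/Trp53i13, Aloxe3/Hes7 and Esrra/Tex40 had 1. Hes7 is a clock gene of the somites. In WT alone, Ntn3/Tbc1d24 had 3, with Ntn3 encoding a netrin, and A830073O21Rik/Fam174b, Akt1/Zbtb42, Arid3c/Dctn3 and Astl/Dusp2 had 1. In GFP alone, Hoxa3/Hoxa7 had 2, and Gm16499/Tril and Hoxd11/Hoxd12 had 1, as had 4930412O13Rik/Gata3. In ΔCC and GFP only, Gm13271/Gm13283 had 4 shared peaks in ΔCC and 2 in GFP, and Gm13276/Ifnz had 2 in ΔCC and 1 in GFP. These are interferon zeta genes, a family of closely related copies. How alike these copies are was not measured here, and their peaks are given as uncertain.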

How the data were processed

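SUZ12 ChIP-seq peaks of 4 libraries (ΔMBD, ΔCC, WT and GFP, 1 per group) were analysed; an input library was not used here. Per the submitters' processing notes, reads were handled with bcl2fastq 2.18.0.12, peaks with MACS2 and the build mm9; no source used here gives the aligner or the peak threshold. Per the file headers, GREAT 3.0.0 linked each peak to its nearest gene on either side within 5000 bp, with curated domains added. The deposited tables give no normalised measure, only the signed distance in bp from start site to peak, and no coordinate, width or strength.

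From these, links over 5000 bp were dropped, repeated lines of a symbol joined, and peaks with 2 or more symbols taken. The signs gave the orientation, and the distances placed every peak of a pair on 1 scale. Names, neighbours and promoters came from RefSeq (GRCm38.p6). Intervals are exact binomial (Clopper-Pearson, 95%) over peaks or genes. There is no test between groups. Pairs were named by the number of shared peaks within each set of libraries, by membership of both genes in the transcription factor list, by closeness of centres or starts, and by distance to the window edge; pairs of developmental regulators outside these rules were added after their values were seen. The members and lists were chosen with earlier results of these data known. The calculation of the geometry was tested on simulated starts and peaks linked by the same rule, where 323 of 323 shared peaks were recovered. This checks the calculation only. Alternatives are described in the closing section. Scripts ran in Python 3.11.15 with SciPy 1.17.1 for intervals, NumPy 2.4.6, and figures by matplotlib 3.10.9. Some pairs are not reported here.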

Additional observations from a re-analysis of the deposited data

Results flagged for a closer look

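Links beyond 5000 bp were left out of the counts above. If they are counted, more peaks are linked to at least 2 genes, outside the main measure: 5 further peaks in ΔMBD, 11 in ΔCC, 3 in WT and 7 in GFP. All but the WT number exceed the 3 counts taken as the limit of a count of 0. By the linking rule stated above, links beyond 5000 bp belong to the curated domains added to it. This was not checked link by link.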

How the results depend on the processing

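Of 110 values under alternatives to 27 results, 69 stayed within 1.5 times the reported count or inside the interval of the reported share, and 41 did not; in none of these 41 was the cause tested. With a window of 2000 bp the shared peaks fell to 23 in ΔMBD, 23 in ΔCC, 17 in WT and 14 in GFP, and with 1000 bp to 13, 11, 9 and 4 in ΔMBD, ΔCC, WT and GFP. Without genes named Gm or Rik and interferon and olfactory receptor genes they were 58, 54, 46 and 35. The share upstream of both starts was 47.8% (ΔMBD), 43.5% (ΔCC) and 42.9% (GFP) at 2000 bp, and 36.4% (ΔCC) and 0% (GFP, 4 peaks) at 1000 bp. Pairs of all libraries numbered 5 at 2000 bp and 2 at 1000 bp, against 17. With centres within 500 bp, 27.3% of ΔMBD pairs and 25.0% of WT pairs recurred in GFP. With 500 bp as the limit, shared peaks with a counterpart were 51.7% of ΔMBD, 44.05% of ΔCC and 33.9% of GFP peaks in WT, 28.1% of ΔMBD, 38.1% of ΔCC and 26.8% of WT peaks in GFP, 51.2% of ΔCC, 59.2% of WT and 42.4% of GFP peaks in ΔMBD, and 47.2% of ΔMBD and 61.0% of GFP peaks in ΔCC. With 2000 bp they were 77.5% of ΔMBD and 64.4% of GFP peaks in WT, 56.2% of ΔMBD, 71.4% of ΔCC and 54.9% of WT peaks in GFP, and 70.8% of ΔMBD and 88.1% of GFP peaks in ΔCC. Without Hox and Evx genes, an alternative chosen after seeing the data, they were 73.9% of GFP peaks in ΔMBD and 63.0% in WT.

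No paired analysis was possible because each group holds 1 library and the labels give no replicate numbers. A stricter peak threshold and overlap by width were not run, since the lists give neither strength nor width. With depth unknown, a pair missing from the shorter GFP and ΔCC lists was not shown to lack SUZ12.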

Other observations

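A peak can also be linked to 1 symbol at 2 places. This was so for Zfp319, with 2 such peaks in ΔMBD, 1 in ΔCC, 1 in WT and 0 in GFP. These peaks were not counted as shared, since both links carry the same name.

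At Gp1bb, the other symbol of a pair shared in ΔCC and GFP is a name that a spreadsheet had turned into a date. It was kept as a symbol of its own and not assigned to a gene. The starts are 8545 bp apart, and the 2 centres lay within 181 bp.

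In WT, 1 shared peak lay between the mitochondrial genes mt-Nd1 and mt-Nd2, 90 bp downstream of the one and 1073 bp upstream of the other. No other library had a shared peak at this pair, but GFP had 1 peak linked to mt-Nd1 alone. What these peaks reflect was not tested.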
